A study of Rattus norvegicus with 22 samples.

Results

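Loop of Henle (LOH) nuclei were the nuclei that the authors' annotation names LOH in the single-nucleus RNA-Seq data of the rat kidney. There were 38543 LOH nuclei among 310282 nuclei of 16 annotated types, or 12.4% of all nuclei. They made up 45.3% of the 85145 distal nuclei, a set formed here from the LOH and the distal convoluted tubule (DCT), both kinds of intercalated cells (IC_A and IC_B) and principal cells (PC) of the collecting duct. The nuclei came from 22 libraries, and every library contributed between 50 and 11023 LOH nuclei.

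The kidneys were from male Sprague-Dawley rats in 5 groups. The 5 control samples came from sham-operated rats at 6 weeks. Rats of the other 4 groups had lost 1 kidney, which the labels state for all 4 and the study's methods for all but the amiloride group, and received deoxycorticosterone acetate (DOCA), a mineralocorticoid given under the skin at 50 mg/kg per week, with salt in the drinking water. The DOCA group, which received only the vehicle in addition, had 4 samples from 6 weeks and 1 from 3 weeks. The finerenone group (10 mg/kg per day) and the spironolactone group (50 mg/kg per day) also had 4 samples from 6 weeks and 1 from 3 weeks. Both drugs block the mineralocorticoid receptor, finerenone being nonsteroidal and spironolactone a steroid. The amiloride group had 2 samples from 6 weeks and was given 20 mg/kg per day of this blocker of the epithelial sodium channel. Control rats therefore differed from DOCA rats in surgery, salt and hormone together, and these cannot be told apart. The 3-week sample of the DOCA group also had no counterpart among the control and amiloride samples.

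The loop of Henle dips from the cortex into the medulla and returns. Its thick ascending limb reabsorbs sodium, potassium and chloride through the cotransporter NKCC2, the product of Slc12a1 and the target of loop diuretics, and it secretes uromodulin, the product of Umod. The distal convoluted tubule follows it directly and takes up sodium chloride through another cotransporter, the target of thiazides. Principal cells reabsorb sodium through the epithelial channel and water through aquaporins, and intercalated cells handle acid and base. Because thick limbs run through both the medulla and the cortex whereas convoluted proximal tubules lie in the cortex, the depth of a tissue piece can change the number of LOH nuclei it holds. Gene values were not analysed here, so the name LOH rests on the authors' annotation and was not checked against Slc12a1 and Umod.

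The annotation gives the treatment of each library, with as many libraries as samples in each group, but no library was matched to a single sample or to a time point. Each library was taken as 1 replicate of its treatment, which is an assumption, and the p-values measure the spread between libraries, which may be partly technical. The names of 5 libraries, 1 per group, end in MO, which was taken here to stand for the Multiome kit that the methods give for 5 samples, and the names of 11 libraries carry a tag, Old or New. Wherever libraries are split by tag below, Old and New were counted together as tagged. Among the names without tags, 5 occur in more than 1 library, 4 of them in more than 1 treatment. In 2 cases the name occurs in a pair of libraries of the same treatment, the control libraries of 1238 and 14747 nuclei and the spironolactone libraries of 13610 and 33683 nuclei. Whether such a pair comes from 1 kidney is not stated in the sources used here. With each pair counted as 1 sample, the LOH share of all nuclei is also given for DOCA against controls and spironolactone against DOCA. The LOH shares of distal nuclei and of LOH and DCT nuclei are given so for spironolactone against DOCA only. Pairs of libraries had up to 563 barcodes in common, and at most 3.12% of the barcodes of the smaller library were shared. For LOH nuclei alone this share was at most 0.815%, and 182 of 231 pairs had no LOH barcode in common. Libraries are named below by their number of nuclei.

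Control kidneys had the highest mean LOH share, but no comparison on this measure passed its test, and the one with amiloride could not. In the control group LOH nuclei were 16.2% of the library of 1238 nuclei, 23.8% of that of 5312, 8.0% of that of 6629, 10.9% of that of 14747 and 20.7% of that of 18931. In the DOCA group the LOH share was 5.92% in the library of 1774 nuclei, 6.76% in that of 8300, 7.64% in that of 8716, 11.2% in that of 13307 and 12.9% in that of 15167. The groups overlapped, as 3 of 5 DOCA libraries lay below every control library and none lay above them all. The mean was 8.87% ± 3.00 (SD, n = 5) with DOCA against 15.9% ± 6.58 (SD, n = 5) in controls, a difference of -7.05 percentage points (exact permutation test, two-sided, p = 0.0635, and 0.254 after Benjamini-Hochberg adjustment over the 4 comparisons). With 5 libraries against 5 the smallest p this test can give is 0.00794. Across all 16 cell types, the same comparison gave an exact permutation p below 0.05 for 5 types, or 31.2%, and an adjusted p below 0.05 for none. LOH was not among the 5, and its permutation p adjusted over the 16 types was 0.145. The shares of 2 types (12.5%) did not overlap between these groups.

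The 3 drug groups were each compared with the same 5 DOCA libraries, to ask whether treatment of the DOCA-salt rat altered the share of these cells. With finerenone the LOH share was 12.7% of the library of 6564 nuclei, 3.95% of that of 9325, 14.6% of that of 13679, 12.0% of that of 40267 and 3.26% of that of 48403. These libraries fell on both sides of the DOCA values. The mean of 9.30% ± 5.29 (SD, n = 5) differed from that of DOCA by 0.42 points (exact permutation p = 0.913). With spironolactone the LOH share was 6.59% in the library of 759 nuclei, 8.62% in that of 6404, 8.88% in that of 13610, 11.0% in that of 22151 and 32.7% in that of 33683. A single library was far above the other 4, which lay within the range of DOCA. The mean of 13.6% ± 10.8 (SD, n = 5) was 4.68 points above DOCA (exact permutation p = 0.516, adjusted 0.688), and -0.11 points from it without the library of 33683 nuclei (p = 0.984). With shared names counted once it was 2.87 points above DOCA (exact permutation p = 0.476), and DOCA was -7.64 points from controls (exact permutation p = 0.0635). The amiloride libraries of 10172 and 11144 nuclei had LOH shares of 4.79% and 7.90%, of which the first was below every DOCA library. Their difference from DOCA was -2.53 points (exact permutation p = 0.476), where 2 libraries against 5 allow no p below 0.0952. None of the 16 cell types had an exact permutation p below 0.05 with spironolactone (0.0%), and 2 types (12.5%) did with finerenone, LOH not being one of them. With amiloride no type could reach such a p. One type each (6.25%) had shares that did not overlap with those of DOCA for finerenone and for amiloride, and LOH was neither of them.

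**Figure D1:**
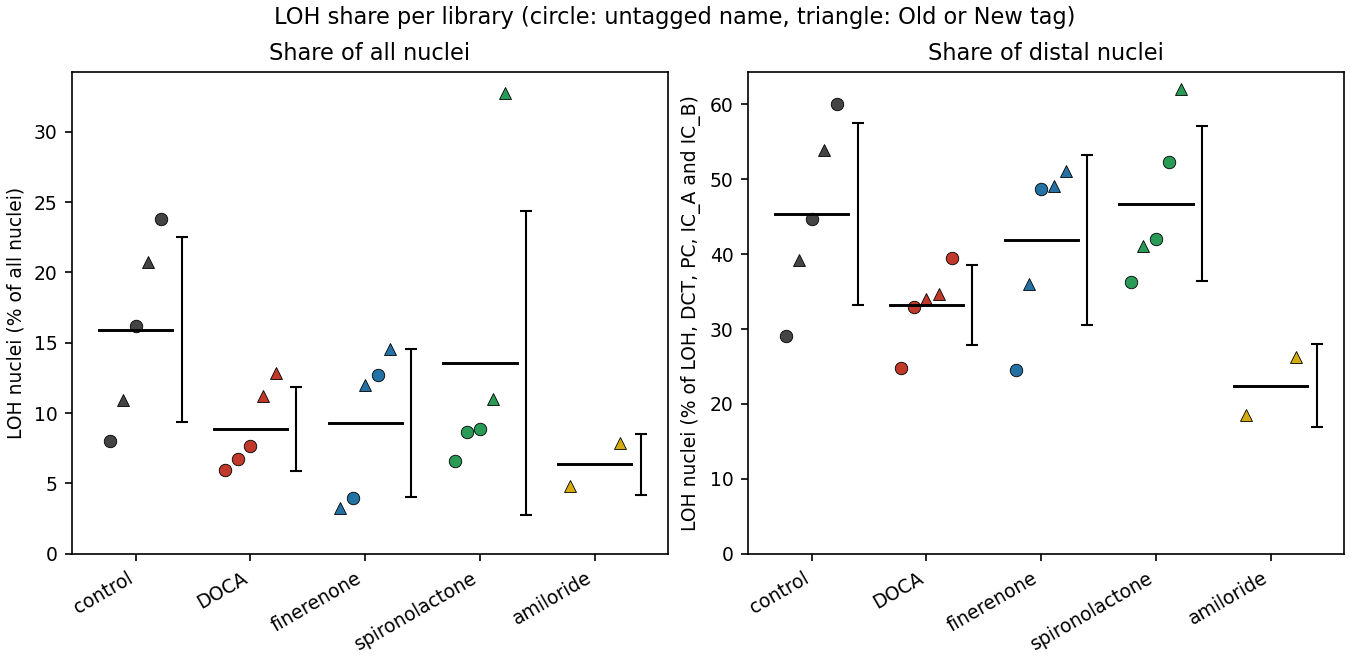
LOH nuclei in each library as a percentage of all nuclei (left) and of distal nuclei (right), by treatment, with 5 libraries per group and 2 for amiloride. Horizontal lines are means, error bars are ± 1 SD, and triangles mark libraries whose names carry a tag. On the left the spironolactone library at 32.7% stands apart from the other 4, whereas on the right 4 of 5 spironolactone libraries lie above all DOCA libraries.

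The spread between libraries was far larger than counting error. The SD between libraries of one group was 7.26 to 22.2 times the SD that binomial sampling of the same numbers of nuclei would give. In the smallest library, with 759 nuclei, the exact (Clopper-Pearson) 95% confidence interval of the LOH share was 4.93% to 8.59%, and in the largest, with 48403 nuclei, it was 3.10% to 3.42%. Such intervals cover counting error only. The 3 libraries of more than 30000 nuclei held 17437 LOH nuclei, or 45.2% of them, and the spironolactone library of 33683 nuclei alone held 28.6%. The methods give 30000 cells loaded per run, fewer than the nuclei in any of these 3 libraries, and whether each is a single run was not tested. When nuclei were pooled by treatment, these libraries took over. The pooled LOH share was 16.1% in controls, 10.1% with DOCA, 8.13% with finerenone, 19.9% with spironolactone and 6.41% with amiloride, so that pooling put spironolactone above the controls and the mean over libraries put it below them.

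Within the distal nuclei, which leaves out the proximal, endothelial, stromal and immune nuclei of a library, the groups were ordered differently. In controls, LOH nuclei were 44.7% of distal nuclei in the library of 1238 nuclei, 60.0% in that of 5312, 29.1% in that of 6629, 39.2% in that of 14747 and 53.9% in that of 18931. In the DOCA libraries the corresponding shares were 32.9% (1774 nuclei), 24.7% (8300 nuclei), 39.4% (8716 nuclei), 34.7% (13307 nuclei) and 34.0% (15167 nuclei). DOCA libraries were more alike than control libraries and none of them reached the 3 highest control values. The mean was 33.2% ± 5.32 (SD, n = 5) with DOCA and 45.4% ± 12.2 (SD, n = 5) in controls, a difference of -12.2 points (exact permutation p = 0.0873, adjusted 0.175).

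Most spironolactone libraries had a higher LOH share of distal nuclei than the DOCA libraries. The values were 36.2% in the library of 759 nuclei, 52.3% in that of 6404, 42.0% in that of 13610, 41.0% in that of 22151 and 62.0% in that of 33683. All but the smallest library lay above every DOCA library. The mean of 46.7% ± 10.4 (SD, n = 5) was 13.6 points above DOCA, with an exact permutation p of 0.0159 that became 0.0635 after adjustment over the 4 comparisons and so did not pass the threshold of 0.05. Without the library of 33683 nuclei the difference was 9.73 points (exact permutation p = 0.0317, adjusted 0.127), and the mean of the other 4 libraries, 42.9%, was below that of controls. With shared names counted once the difference from DOCA was 12.2 points (exact permutation p = 0.0317, adjusted 0.127). Unlike the share of all nuclei, the distal share thus kept its direction without that library.

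With finerenone the difference from DOCA did not pass the test, and with amiloride the 2 libraries could not. Finerenone libraries had LOH at 48.7% (6564 nuclei), 24.5% (9325 nuclei), 51.1% (13679 nuclei), 49.1% (40267 nuclei) and 36.0% (48403 nuclei) of distal nuclei. Of these 5 values, 3 lay above all DOCA libraries and 1 below all of them, and the mean of 41.9% ± 11.4 (SD, n = 5) was 8.72 points above DOCA (exact permutation p = 0.135, adjusted 0.180). The amiloride libraries had the lowest and the fourth lowest distal shares of all, 18.5% (10172 nuclei) and 26.3% (11144 nuclei). Their mean of 22.4% ± 5.52 (SD, n = 2) was 10.8 points below DOCA in size, with an exact permutation p of 0.190, where the smallest possible is 0.0952. An overall test with treatment as the only factor gave F = 3.13 for the distal share (permutation p = 0.0439), with 42.4% of the variance between treatments. This value missed the threshold in 13 of the 22 fits that left out 1 library and was lowest without the amiloride library of 10172 nuclei (F = 1.90, permutation p = 0.152). For the share of all nuclei the overall F was 1.23 (permutation p = 0.320).

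**Figure D2:**
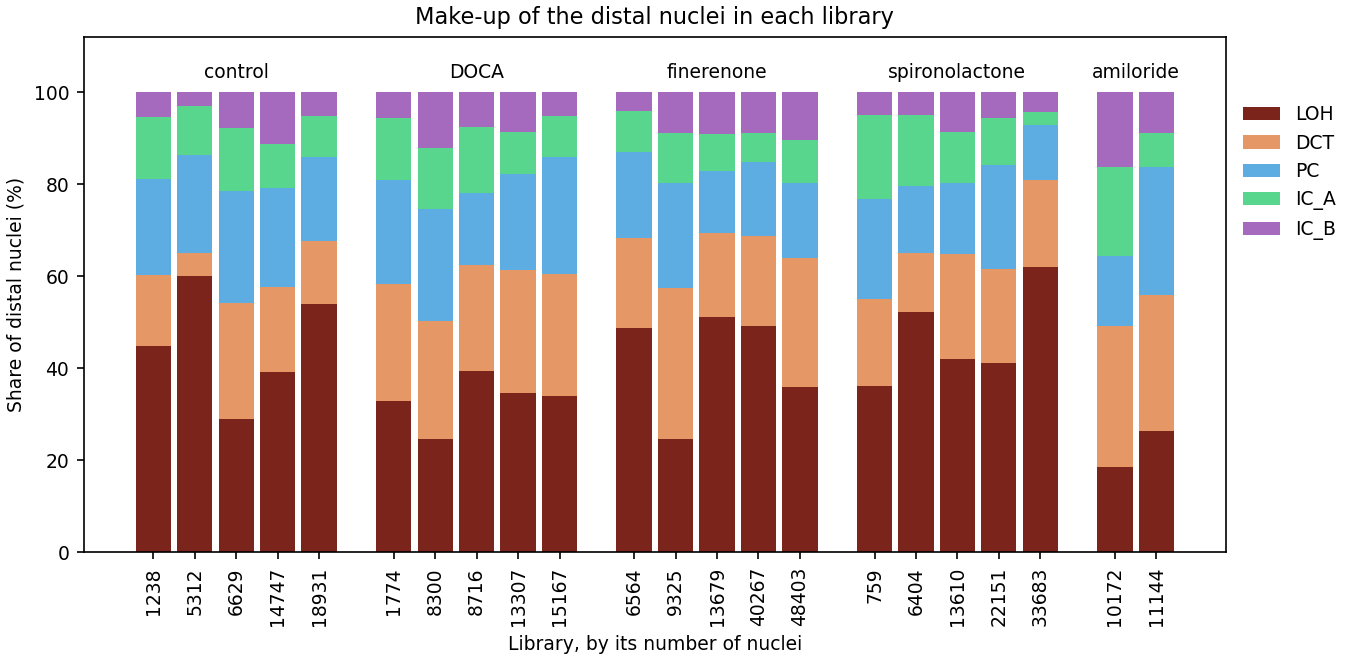
Shares of the 5 distal cell types among the distal nuclei of each library, in percent, with libraries ordered within treatments by their number of nuclei. LOH makes up from 18.5% (amiloride, 10172 nuclei) to 62.0% (spironolactone, 33683 nuclei), and DCT is similar in the 5 DOCA libraries (23.0% to 26.5%).

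LOH nuclei were then set against those of the distal convoluted tubule, the next segment of the nephron. DCT cells were 23.0% to 26.5% of distal nuclei in DOCA libraries, 5.04% to 25.1% in controls, 18.3% to 33.0% with finerenone, 12.6% to 22.9% with spironolactone and 29.7% and 30.8% with amiloride. In controls there were 2.90 LOH nuclei per DCT nucleus in the library of 1238 nuclei, 11.9 in that of 5312, 1.16 in that of 6629, 2.11 in that of 14747 and 3.95 in that of 18931. In DOCA libraries this ratio was 1.30 (1774 nuclei), 0.971 (8300 nuclei), 1.71 (8716 nuclei), 1.31 (13307 nuclei) and 1.28 (15167 nuclei). Control ratios spread widely, and the DOCA ratios lay at or below 1.71 with little spread.

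All 5 spironolactone libraries had more LOH nuclei per DCT nucleus than any DOCA library. The ratio was 1.92 in the library of 759 nuclei, 4.15 in that of 6404, 1.84 in that of 13610, 2.00 in that of 22151 and 3.30 in that of 33683. Counting LOH and DCT nuclei alone, the LOH share was 70.9% with spironolactone and 56.3% with DOCA, a difference of 14.6 points (exact permutation p = 0.00794, the smallest possible, and 0.0317 after adjustment over the 4 comparisons). This denominator was an alternative to that of all distal nuclei, and no other alternative brought this comparison past the threshold. With shared names counted once it was 14.6 points, and with the spironolactone library of 33683 nuclei left out 13.1 points, each with 4 samples against 5, an exact permutation p of 0.0159 and an adjusted p of 0.0635. An exact permutation p of 0.0159 is the smallest that 4 samples against 5 can give, whereas the adjusted p also depends on the other comparisons. The comparison passed the threshold with all 5 libraries counted separately and in neither of these runs. Set beside each of the 15 other cell types in turn, the LOH share of spironolactone and DOCA libraries did not overlap for 1 type, DCT, and the permutation p adjusted over those 15 types was 0.119. Among all 120 pairs of cell types, 2 (1.67%) had shares that did not overlap between these groups, and among the 10 distal pairs 1 (10.0%) did, the LOH and DCT pair itself.

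With amiloride the ratio was low in both libraries. It was 0.601 in the library of 10172 nuclei and 0.886 in that of 11144, both below all 5 DOCA libraries, and the LOH share of LOH and DCT nuclei was 42.3%, against 56.3% with DOCA (difference -14.1 points, exact permutation p = 0.0952, the smallest possible with 2 libraries). In this comparison 15.8% of the 120 pairs of cell types did not overlap between the groups. Finerenone libraries had ratios of 2.49 (6564 nuclei), 0.743 (9325 nuclei), 2.80 (13679 nuclei), 2.52 (40267 nuclei) and 1.29 (48403 nuclei), which lay on both sides of DOCA (difference in the LOH share 6.78 points, exact permutation p = 0.294). The control share of 73.6% was above the DOCA share by 17.2 points in size (exact permutation p = 0.0397, adjusted 0.0794 over the 4 comparisons), with overlapping libraries.

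Principal cells, further along the tubule, gave a smaller separation. LOH nuclei were 60.2% of LOH and PC nuclei with DOCA and 72.4% with spironolactone (difference 12.2 points, exact permutation p = 0.0476, and 0.278 adjusted over the 15 types). In controls this share was 67.1%, with finerenone 69.5% and with amiloride 51.9%. Neither controls nor finerenone differed from DOCA at an exact permutation p below 0.05, and amiloride could not reach such a p. For DOCA against controls 6 of the 15 types gave an exact permutation p below 0.05, and none an adjusted p below 0.05. These were DCT and 5 types that were not counted among the distal nuclei. The LOH share of LOH and injured proximal tubule (iPT) nuclei was 52.5% with DOCA and 76.5% in controls, a difference of -24.0 points (exact permutation p = 0.0159, adjusted 0.0595 over the 15 types). With macrophages the difference was -23.5 points (exact permutation p = 0.0238) and with lymphocytes -13.1 points (exact permutation p = 0.0159). Proliferating tubule cells and monocytes were the 2 types for which this share did not overlap between DOCA and controls, with the LOH share lower with DOCA by 10.9 and 5.18 points in size (exact permutation p = 0.00794 for both, adjusted 0.0595). The own shares of these 5 types among all nuclei were higher with DOCA than in controls, by 0.95 points for proliferating tubule cells, 1.17 for lymphocytes, 0.36 for monocytes, 2.66 for macrophages and 3.43 for iPT (exact permutation p from 0.00794 to 0.0238, adjusted 0.0635 to 0.0762 over the 16 types). How much of the differences in these pairs came from LOH nuclei was not tested. For this comparison 16 of all 120 pairs of types (13.3%) did not overlap.

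Proximal convoluted tubule (PCT) cells, the main type of the cortex, were used as a hint of the region each piece came from. On a log2 scale the ratio of LOH to PCT nuclei averaged -1.02 ± 0.99 in controls, -2.03 ± 0.75 with DOCA, -1.94 ± 0.99 with finerenone, -1.40 ± 1.50 with spironolactone (SD, n = 5 each) and -2.66 ± 0.62 with amiloride (SD, n = 2). DOCA was below controls by 1.01 in size (exact permutation p = 0.103, adjusted 0.413), and the drug groups had an exact permutation p against DOCA of 0.889 (finerenone), 0.492 (spironolactone) and 0.381 (amiloride, for which none below 0.0952 is possible). The highest ratio, 2.29 LOH nuclei per PCT nucleus, was in the spironolactone library of 33683 nuclei, in which only 14.3% of nuclei were PCT. The lowest, 0.106, was in the finerenone library of 9325 nuclei.

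Libraries with fewer PCT nuclei tended to hold a larger LOH share among the remaining nuclei. Over 22 libraries Pearson's r was -0.48 (permutation p = 0.0229, adjusted over 3 relations 0.0343) and Spearman's rho was -0.35 (permutation p = 0.111, adjusted 0.145). Without the 2 libraries farthest from the median PCT share r was -0.51 (permutation p = 0.0227), and with treatment means subtracted it was -0.45 (permutation p = 0.0332). Within the untagged libraries r was -0.73 (n = 11, permutation p = 0.0066) and within the tagged ones it was -0.31 (n = 11, permutation p = 0.357), so that the relation did not hold in both. By rank it held in neither, with rho = -0.45 in untagged (permutation p = 0.174) and -0.07 in tagged libraries (permutation p = 0.837). The LOH share of all nuclei also fell with the PCT share (r = -0.63, permutation p = 0.0018, adjusted 0.0053; rho = -0.52, permutation p = 0.0154, adjusted 0.0461), but both are parts of one whole. It had r = -0.67 without the 2 farthest libraries (permutation p = 0.0011), -0.82 in untagged (permutation p = 0.0013) and -0.50 in tagged libraries (permutation p = 0.116). The LOH share of distal nuclei had no detectable relation to the share of straight tubule (PST) cells among proximal nuclei (r = 0.20, permutation p = 0.392; rho = 0.32, permutation p = 0.145). In that comparison r was 0.33 without the 2 farthest libraries (permutation p = 0.162), 0.52 in untagged (permutation p = 0.103) and 0.07 in tagged libraries (permutation p = 0.839).

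**Figure D3:**
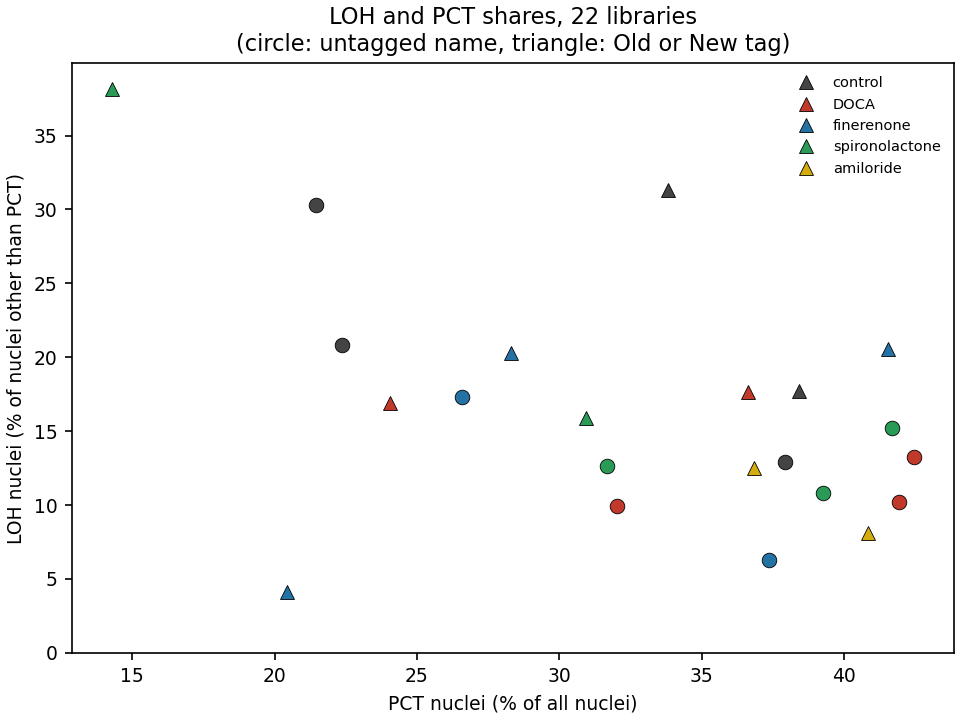
LOH nuclei as a percentage of nuclei other than PCT against PCT nuclei as a percentage of all nuclei, 1 point per library, colored by treatment. Points fall from upper left to lower right (r = -0.48), with the finerenone library of 48403 nuclei at the lower left, where LOH is 4.09% of the other nuclei and PCT 20.4% of all.

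Both libraries at the ends of the LOH range were unusual in the rest of their nuclei. In the spironolactone library of 33683 nuclei, distal nuclei were 52.8% of all nuclei and podocytes, the filtering cells of the glomerulus, were 7.68%. In the finerenone library of 48403 nuclei, straight proximal tubule cells, which lie in the outer medulla and the medullary rays, were 63.8% of all nuclei and distal nuclei only 9.05%. The part of the sampled region in the LOH shares was not tested. The DOCA group was also split by library tag, with LOH shares of 5.92% to 7.64% in its 3 untagged and 11.2% and 12.9% in its 2 tagged libraries. Within untagged libraries the LOH share averaged 16% in 3 control, 6.77% in 3 DOCA, 8.33% in 2 finerenone and 8.03% in 3 spironolactone libraries. Within tagged libraries it averaged 15.8%, 12.0%, 9.94% and 21.9% in 2 control, 2 DOCA, 3 finerenone and 2 spironolactone libraries. For the distal share the same means were 44.6%, 32.4%, 36.6% and 43.5% in untagged and 46.5%, 34.4%, 45.4% and 51.5% in tagged libraries, so that spironolactone lay above DOCA in both. Both amiloride libraries were tagged. The tag was New for both of them and Old for both tagged control libraries. Tagged DOCA and spironolactone libraries had Old and New in equal number, and the finerenone ones had both tags. The finerenone libraries of 40267 and 48403 nuclei and the spironolactone library of 33683 nuclei, the largest of all, carried New. The part of Old against New in the tagged means was not tested.

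On the UMAP, the authors' projection of all nuclei onto 2 coordinates without a unit, nearly all LOH nuclei lay in 1 island. Of the 38543 nuclei, 38049 (98.7%) belonged to it when nuclei with at least 30 neighbors within 0.5 units were linked, and a second island held 45 nuclei. At 0.3 units there were also 2 islands and at 1.0 units there were 3, with 98.1% and 98.9% of LOH nuclei in the main one. Among the 30 nearest nuclei of any type, LOH was the majority for 37811 LOH nuclei (98.1%), and all 30 were LOH for 91.3%. By this measure LOH ranked 11 among the 16 types. The island lay nearest to the DCT, whose center was 6.04 units away, and next to the PC at 9.99 units. Cell types were named from clusters of the same data, so that these values describe the annotation and do not test it.

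A small number of nuclei named LOH sat elsewhere. The neighbors of 732 LOH nuclei were mostly of other types. For 245 of them the leading type was PCT, for 242 DCT, for 113 PST, for 56 PC and for 33 endothelial cells. The share of LOH nuclei outside the main island ranged from 0.0% in the control library of 1238 and the spironolactone library of 759 nuclei to 5.71% in the finerenone libraries of 9325 and of 48403 nuclei. The share of LOH nuclei with mostly LOH neighbors did not differ between treatments beyond the spread between libraries (exact permutation p from 0.159 to 0.810, adjusted 0.508 to 0.810).

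**Figure D4:**
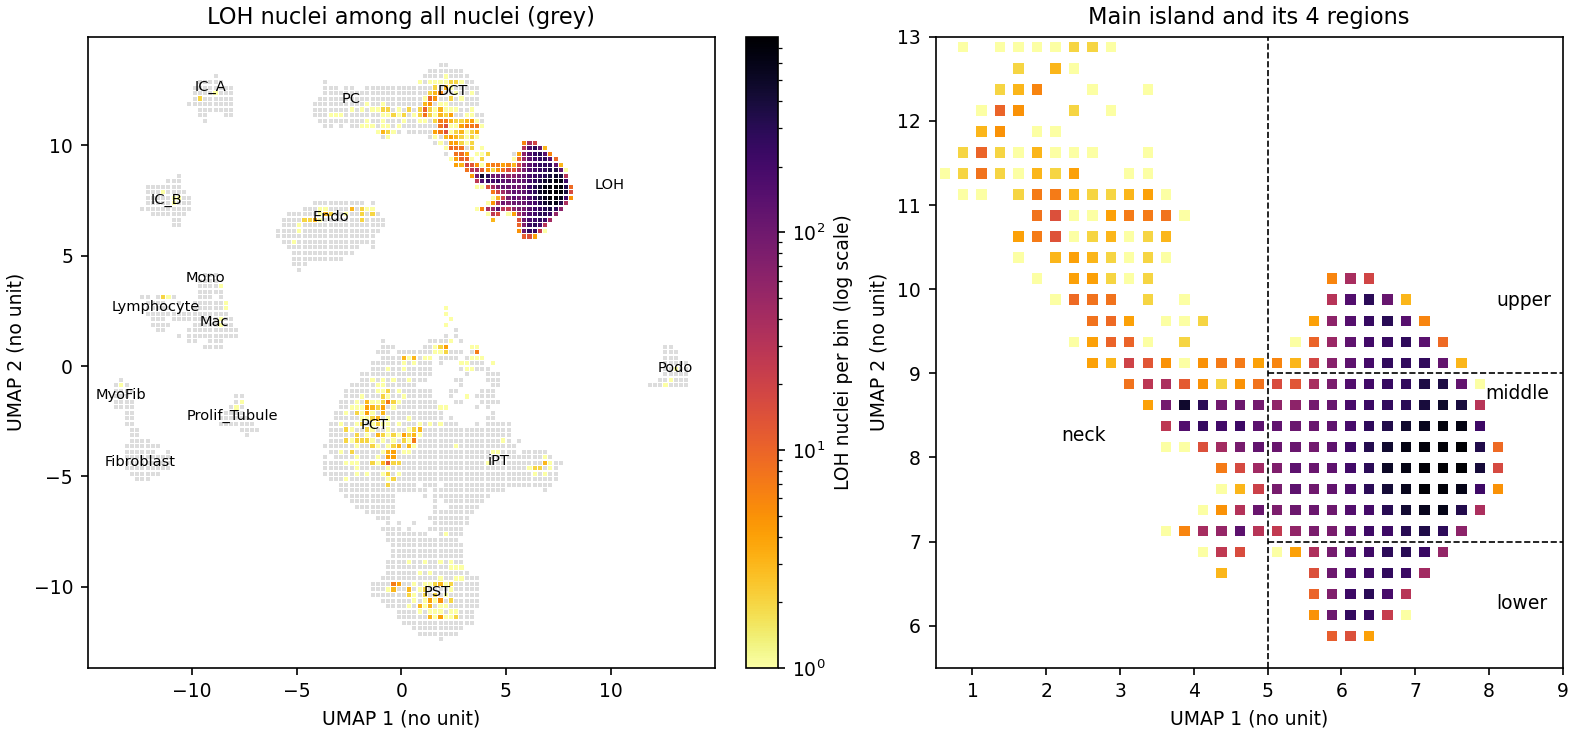
Left, LOH nuclei per UMAP bin on a log color scale over the bins of all nuclei (grey), with the names of the 16 types at their centers; right, the LOH nuclei around the main island, with dashed lines at UMAP 1 of 5 and UMAP 2 of 7 and 9 that divide it into a neck, a lower, a middle and an upper region. The neck runs from the island toward the DCT, and the densest bins are at the right edge of the middle region.

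The island was not filled evenly by the groups. It was divided for description, by lines placed after the map had been seen, into a neck on the side of the DCT (3456 nuclei, 5.92% of whose neighbors were DCT), a lower end (3901 nuclei), a middle (26722 nuclei) and an upper end (3970 nuclei). The lower end held 36.0%, 31.2%, 22.6%, 20.6% and 27.5% of the island's LOH nuclei in the control libraries of 1238, 5312, 6629, 14747 and 18931 nuclei. In the DOCA libraries of 1774, 8300, 8716, 13307 and 15167 nuclei it held 17.3%, 4.92%, 13.8%, 5.13% and 2.91%. The groups did not overlap. At the upper end the control libraries had 21.7% to 27.5% and the DOCA libraries 5.13% to 19.2%, again without overlap. In the middle they overlapped, at 33.5% to 49.4% and 40.4% to 80.3%, as they did in the neck, so that 2 of the 4 regions separated the groups. These counts received no test because the regions were drawn on the same nuclei.

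The drug groups lay near DOCA in this respect. The lower end held 1.56% to 19.6% of LOH nuclei in finerenone libraries, 1.88% to 18.0% in spironolactone libraries, and 3.39% and 9.32% in amiloride libraries, all below the lowest control library at 20.6%. The upper end held 0.77% to 21.9% with finerenone, 0.74% to 18.0% with spironolactone and 18.4% and 10.8% with amiloride, and 1 of these 12 libraries, the finerenone library of 13679 nuclei, exceeded the lowest control library. The neck held 3.00% to 13.2% in controls and 9.45% to 26.0% with DOCA, and its shares of 2.60% to 25.1% with finerenone, 1.74% to 28.1% with spironolactone and 9.79% and 18.4% with amiloride overlapped with both. The finerenone library of 40267 nuclei and the spironolactone library of 33683 nuclei had 95.1% and 95.6% of their LOH nuclei in the middle, more than any other library, of which the next had 80.3%. Without the libraries of more than 30000 nuclei the lower end held 5.19% to 19.6% with finerenone and 7.71% to 18.0% with spironolactone. What the ends of the island stand for, in genes or segments of the loop, cannot be read from the coordinates.

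**Figure D5:**
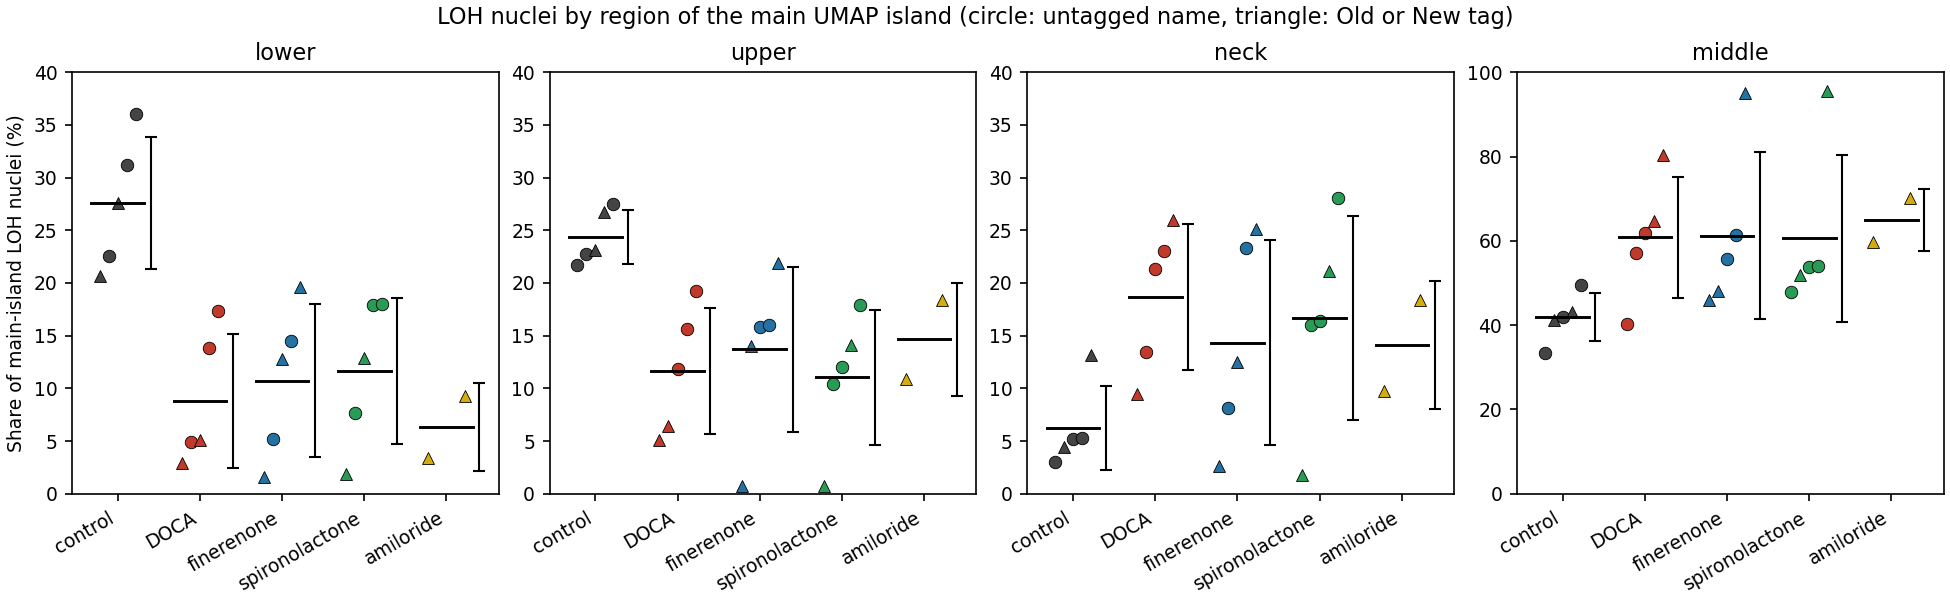
Shares of the main island's LOH nuclei in its lower, upper, neck and middle regions, in percent, 1 point per library by treatment, with means as lines and ± 1 SD as error bars; the middle panel has its own scale. The 5 control libraries lie above all other libraries in the lower region (20.6% to 36.0%) and 2 libraries exceed 95% in the middle region.

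Mean positions, which need no such lines, differed less clearly. The mean UMAP 1 coordinate of LOH nuclei was 6.32 ± 0.19 in control and 5.89 ± 0.39 in DOCA libraries (SD, n = 5 each, exact permutation p = 0.0635, adjusted 0.254). The mean UMAP 2 coordinate was 7.88 ± 0.13 in control and 8.06 ± 0.12 in DOCA libraries (SD, n = 5 each, exact permutation p = 0.0556, adjusted 0.159). With finerenone UMAP 2 averaged 7.84 ± 0.24, lower than with DOCA by 0.21 in size (SD, n = 5, exact permutation p = 0.0794, adjusted 0.159). This difference was 0.02 in size within the main island (exact permutation p = 0.802) and 0.11 in size without the finerenone library of 48403 nuclei. With all libraries none of the 8 comparisons of mean position had an adjusted p below 0.05, which the 2 with amiloride could not reach. Without the DOCA library of 8716 nuclei the UMAP 2 differences of controls and finerenone from DOCA had an adjusted exact permutation p of 0.0317. That of spironolactone had an adjusted exact permutation p of 0.0423. Nuclei of 1 library also kept together within the island. On average 23.3% of the LOH neighbors of an LOH nucleus came from its own library, against 12.6% if libraries were fully mixed, a ratio of 1.85. For treatments these shares were 35.0% and 27.4%, a ratio of 1.28. Among the neighbors from other libraries, 15.2% came from libraries of the nucleus's own treatment, against 17.0% if these were fully mixed, a ratio of 0.892.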

How the data were processed

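Nuclei were isolated from pieces of frozen kidney, and per the submitters' processing notes and the study's methods the authors ran Cell Ranger on the rat genome rn6 with introns counted, SoupX, DoubletFinder, Seurat with filters on genes and mitochondrial percentage, and Harmony, and clusters were named by their markers. The notes give Cell Ranger 3.0.2 for some samples and 6.0.1 for others and Seurat 4.0.1, whereas the methods give Cell Ranger 6.0.1 alone and another version of Seurat. Per the file headers, the authors' UMAP position of a nucleus is a unitless score pair, and its library, treatment and type are given as names. Depth per nucleus was not analysed here, and the number of nuclei per library (759 to 48403) sets the counting error. Shares were computed per library with Python 3.11.15, pandas 2.3.3 and numpy 2.4.6. Groups were compared with two-sided exact permutation tests of the difference between means (scipy 1.17.1), adjusted by Benjamini-Hochberg over 4 contrasts, and overall tests and correlations used 100000 permutations (10000 when a library was left out). Neighbors were found with scipy 1.17.1 and islands with scikit-learn 1.9.0, and figures were drawn with matplotlib 3.10.9. The code was tested on simulated data. The cells, lists and tests were chosen with earlier results of these data known; the pairs of cell types and the island regions were added after the data were seen. Alternatives were other denominators and scales, pooled nuclei, subsets of libraries and leaving out each library. No gene was chosen by its values.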

Additional observations from a re-analysis of the deposited data

Results flagged for a closer look

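Of 24 groups of 5 libraries checked for a library far from the others, 3 had one. Chance alone gives about 1 in 20 for a single check. The 24 checks reused the same libraries in related measures, so this count cannot be set against that rate. In the spironolactone group the library of 33683 nuclei had an LOH share of 32.7%, against 6.59% to 11.0% in the other 4, and a log2 ratio of LOH to PCT nuclei of 1.20, against -2.58 to -1.50. In the finerenone group the library of 48403 nuclei had a mean UMAP 2 coordinate of LOH nuclei of 7.42, against 7.92 to 7.98. In that library 5.71% of LOH nuclei lay outside the main island, and its mean within the island was 8.22.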

How the results depend on the processing

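No paired analysis was possible because the names of the libraries do not carry the replicate numbers of the samples. Names shared between treatments were not used as pairs, since what such a name marks is not stated in the sources used here. For each name shared by a DOCA and a finerenone library, the LOH share of distal nuclei was higher with finerenone. With DOCA it was 32.9% (1774 nuclei), 24.7% (8300 nuclei) and 34.7% (13307 nuclei). With finerenone, in the same order of names, it was 49.1% (40267 nuclei), 36.0% (48403 nuclei) and 51.1% (13679 nuclei). The other measures did not all follow. For the libraries of 8300 and 48403 nuclei the LOH share of all nuclei was 6.76% with DOCA and 3.26% with finerenone. Their log2 ratios of LOH to PCT nuclei were -2.24 and -2.65. For the other names both measures were higher with finerenone. None of this was tested. Apart from runs without 1 library, 211 of 239 alternatives kept the direction and the side of the threshold. Where a run had no test, as with pooled nuclei, a shift smaller than the SD between libraries was counted instead. In the main runs no comparison between 2 groups had an adjusted p below 0.05, and those with amiloride could not. Keeping that side was thus in part fixed beforehand. The finerenone difference from DOCA in the LOH share, near 0, turned to -1.97 points with pooled nuclei, -2.09 in tagged libraries, -0.32 without libraries under 2000 nuclei, -0.27 within tags and -0.081 on the logit scale. The same difference in the log2 ratio turned to -0.18, -0.49, -0.11 and -0.067 under the first 4 of these, to -0.29 against all proximal nuclei and to -0.95 against PST alone. Without libraries over 30000 nuclei, or without the one with most LOH nuclei, the spironolactone differences were -0.11 points and -0.014 (log2), and the first also gave -0.058 for UMAP 1. Without Multiome libraries amiloride gave 0.016 points and 0.091 (log2), and in the main island alone 0.076 for UMAP 2. With LOH and DCT nuclei only, the spironolactone difference in the distal share, 14.6 points, passed the threshold. The overall F of the distal share no longer passed it without Multiome libraries (1.70), in tagged (3.39) or untagged libraries (0.684), without libraries over 30000 (2.68) or under 2000 nuclei (2.92), or without the library with most LOH nuclei (2.95). The relation of the LOH share outside PCT to the PCT share did not pass in tagged libraries (r = -0.31) or without Multiome libraries (r = -0.47).

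Leaving out 1 library at a time moved the difference in the LOH share from -9.03 to -5.08 points for DOCA against controls, and against DOCA from -0.89 to 1.93 for finerenone, -0.11 to 6.43 for spironolactone and -4.09 to -0.98 for amiloride. For the distal share these ranges were -16.3 to -8.55, 6.41 to 13.1, 9.73 to 16.2 and -14.7 to -6.85 points, and for the log2 ratio -1.32 to -0.72, -0.16 to 0.41, -0.014 to 0.93 and -1.06 to -0.19. The overall F ranged from 0.822 to 2.55, from 1.90 to 4.28 and from 0.792 to 1.84 for the 3 measures. UMAP 1 differences ranged from -0.59 to -0.33, -0.037 to 0.38, -0.058 to 0.36 and -0.0076 to 0.27, and UMAP 2 differences from 0.12 to 0.22, -0.26 to -0.11, -0.15 to -0.063 and -0.27 to 0.0051. Without the DOCA library of 8716 nuclei the UMAP 2 differences of controls and of finerenone from DOCA had an adjusted exact permutation p of 0.0317 and that of spironolactone of 0.0423. The causes were not tested. The difference in the share of LOH nuclei with mostly LOH neighbors moved from -2.59 to -1.02, -1.52 to 0.77, 0.65 to 2.50 and -2.86 to -1.29 points.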
